A study of Mus musculus with 11 samples.

Results

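The genes described here are 9 textbook targets of the transcription factor NRF2: Nqo1, Gclc, Gclm, Txnrd1, Srxn1, Hmox1, Slc7a11, Gsr and G6pdx. They were chosen by name, as rows of the deposited gene count table, and are 9 of its 43346 genes. All 9 were found once and all 9 passed the filter on low counts. RNA was sequenced from livers of FVB/NJ mice in which hepatocellular carcinoma had been induced by expression of MET and β-catenin, so every library, the untreated one included, comes from that model. The labels divide 10 libraries that received the antibody anti-PD-1, which blocks the T cell checkpoint receptor PD-1, into 6 responders and 4 non-responders. For 1 further library the response label gives no treatment while its treatment label still names anti-PD-1; it is called untreated here. How response was scored, the age of the mice and the share of tumour in each piece of liver are not stated in the labels. Nor do the labels say that the libraries come from separate mice, so p-values measure the spread among these libraries only.

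NRF2, encoded by Nfe2l2, is held down by KEAP1, an adaptor that presents it to a CUL3 ubiquitin ligase for breakdown. Oxidants and electrophiles modify cysteines of KEAP1, NRF2 then accumulates, pairs with a small MAF protein and binds antioxidant response elements near its target genes. In liver these targets conjugate and clear reactive chemicals and keep glutathione and thioredoxin reduced, and mutations that activate NRF2 occur in a share of human liver cancers.

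The RefSeq promoter table of build GRCm38.p6 matched 6 of the 9 genes. The 250 bases upstream of the start site are printed for the pair of genes that passed the test, Nqo1 and Srxn1, and for Gclm, which had the largest change in the other direction. Capitals mark matches on either strand to a core of the antioxidant response element, TGACNNNGC, or to the AP-1 motif TGACTCA. The motifs can overlap, since an AP-1 match followed by GC is also a match to the core, but the matches printed here do not.
Nqo1: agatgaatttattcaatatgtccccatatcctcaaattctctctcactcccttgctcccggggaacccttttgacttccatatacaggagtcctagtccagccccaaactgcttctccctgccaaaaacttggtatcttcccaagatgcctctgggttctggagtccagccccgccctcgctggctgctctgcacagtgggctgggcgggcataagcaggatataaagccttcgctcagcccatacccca
Srxn1: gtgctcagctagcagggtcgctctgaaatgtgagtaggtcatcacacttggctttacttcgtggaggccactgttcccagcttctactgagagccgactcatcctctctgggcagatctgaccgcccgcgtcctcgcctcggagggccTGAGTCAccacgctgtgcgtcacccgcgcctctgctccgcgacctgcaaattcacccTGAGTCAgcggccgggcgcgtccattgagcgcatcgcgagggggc
Gclm: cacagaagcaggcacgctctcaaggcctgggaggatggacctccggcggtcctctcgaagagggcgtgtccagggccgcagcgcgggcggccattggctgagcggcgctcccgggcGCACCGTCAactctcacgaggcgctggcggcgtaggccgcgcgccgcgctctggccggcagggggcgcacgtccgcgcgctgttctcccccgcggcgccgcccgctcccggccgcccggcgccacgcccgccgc
The Nqo1 window is chr8:107403206-107403455 on the minus strand, the Srxn1 window chr2:152105274-152105523 and the Gclm window chr3:122245307-122245556, both on the plus strand. Nqo1 had no match in these bases. Srxn1 had 2 AP-1 matches, both on the strand opposite to the gene, which began 102 and 45 bases before the start site. As printed, the match nearer the start site is followed by GC, but it reads TGAG where the core searched has TGAC. Other forms of the antioxidant response element were not searched, so a window without a match to this core may still hold one. Gclm had 1 match to the core, also on the opposite strand, 134 to 126 bases before the start. Txnrd1 and G6pdx each held 1 match to the core (Txnrd1 in 1 of its 3 listed promoters) and Slc7a11 held none. Among 32851 promoters of the same length 10.2% held the core and 4.46% the AP-1 motif. A match is a match of letters, not a measured binding site.

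Depth ran from 17876515 to 40565708 gene counts in responders and from 25542066 to 39941835 in non-responders, and was 49884800 in the untreated library. Non-responder replicate 1 stood apart in the position of its reads along genes: its index of read density in later over earlier exons, a median log2 value over 4240 genes, was 1.18, against -0.19 to 0.03 in the 10 other libraries. The summed level of the fetal liver and tumour markers, among them Afp (alpha-fetoprotein), also separated the groups. It was 3.27 to 308 CPM (counts scaled to a common library size, by TMM) in responders, 519 to 1461 CPM in non-responders and 4.396 CPM in the untreated library. Of the 8 genes, 4 were called lower in responders in edgeR. Afp itself overlapped between the groups and did not pass, with a log2 fold change of -2.69 ± 1.31 (SE; adjusted p in edgeR = 0.217). Hepatocyte markers, which rest mostly on Alb (albumin), summed to 72660 to 87573 CPM in responders, 100710 to 122261 CPM in non-responders and 76028 CPM in the untreated library. The list did not move as 1: 2 of its 8 genes rose and 1 fell, with a median log2 fold change of 0.58, while Alb itself had -0.60 ± 0.18 (SE; adjusted p in edgeR = 0.0524). Kupffer cell and macrophage markers summed to 211 to 702 CPM in responders, 96.5 to 494 CPM in non-responders and 301 CPM in the untreated library. T and natural killer cell markers summed to 4.29 to 8.09 CPM in responders, 4.28 to 14.8 CPM in non-responders and 3.82 CPM in the untreated library, with 2 of 9 lower in responders. Erythroid markers summed to 82.4 to 191 CPM in responders, 145 to 294 CPM in non-responders and 79.4 CPM in the untreated library, with 3 of 6 tested genes lower in responders and a median log2 fold change of -1.21. Stellate cell markers summed to 141 to 358 CPM in responders, 316 to 460 CPM in non-responders and 179 CPM in the untreated library, with a median of -0.77 and no gene passing, and cholangiocyte markers to 17.4 to 25.8 CPM in responders, 25.7 to 69.8 CPM in non-responders and 18.8 CPM in the untreated library. No marker held by the table was at 0 in all libraries. The part of these markers in the results below was not tested. In these bulk samples, fewer cells of a type and less RNA per cell cannot be told apart.

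Of the 9 genes, 2 fell in responders relative to non-responders, Nqo1 and Srxn1, and none of the other 7 passed the threshold (edgeR quasi-likelihood F test, Benjamini-Hochberg adjusted p under 0.05 over 17610 genes). Over all genes tested, 5.82% were called lower in responders and 4.11% higher. The median log2 fold change was -0.11 over the 9 genes and -0.02 over all genes tested. No member was called higher in this edgeR fit, 2 had an unadjusted p under 0.05 in that direction (Gclm and Gsr), and DESeq2 called the same 2 higher. Of all 17610 genes, 4803 had an unadjusted p under 0.05 in edgeR, in either direction. DESeq2 called 1396 of them higher and 1661 lower, more than edgeR did.

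Nqo1 encodes NAD(P)H quinone dehydrogenase 1, which reduces quinones in a single step that avoids a reactive semiquinone (chromosome 8, 107388225 to 107403206, minus strand, mm10). Its level was 3.95, 4.62, 7.499, 9.54, 5.24 and 7.22 CPM in responder replicates 1 to 6, and 11.6, 12.9, 11.6 and 12.1 CPM in non-responder replicates 1 to 4. The untreated library had 4.27 CPM. All 6 responders lay below all 4 non-responders, and the non-responders lay within a narrow band. Nqo1 averaged 6.34 ± 2.11 CPM in responders (SD, n = 6) and 12.1 ± 0.617 CPM in non-responders (SD, n = 4), giving a log2 fold change of -0.93 ± 0.22 (SE; adjusted p in edgeR = 0.0281). The gene is a low one in these livers, with 98 to 486 reads per library.

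Srxn1 encodes sulfiredoxin, which repairs over-oxidised peroxiredoxins (chromosome 2, 152105516 to 152111376, plus strand). It had 41.8, 38.7, 58.9, 64.7, 40.7 and 54.4 CPM in responder replicates 1 to 6, and 89.9, 104, 77.2 and 74.9 CPM in non-responder replicates 1 to 4. The untreated library had 37.7 CPM. Here too every responder lay below every non-responder; over all genes tested, 5.66% showed that arrangement. The mean was 49.9 ± 10.9 CPM in responders (SD, n = 6) and 86.4 ± 13.3 CPM in non-responders (SD, n = 4), with a log2 fold change of -0.79 ± 0.17 (SE; adjusted p in edgeR = 0.0210).

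**Figure D1:**
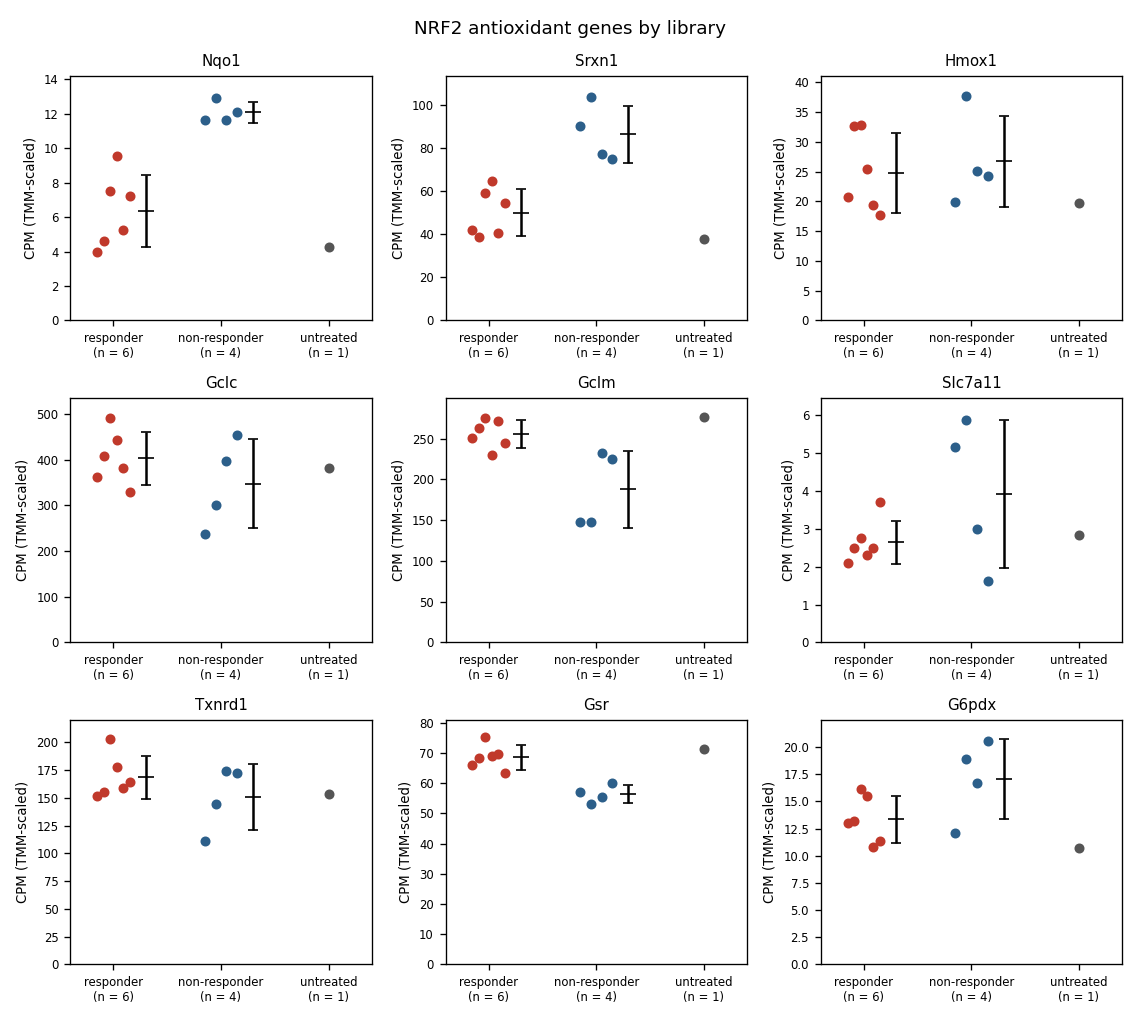
Level of each of the 9 genes in CPM (TMM-scaled, linear axis from 0), 1 point per library, for 6 responders, 4 non-responders and the 1 untreated library. Nqo1 and Srxn1 lay lower in every responder than in every non-responder, Gsr lay higher, and the groups overlapped for the other 6 genes.

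By exon, the means of Nqo1 and Srxn1 were lower in responders throughout, though few exons separated the groups. All 6 Nqo1 exon intervals with a mean of at least 10 reads had a lower mean in responders, with log2 ratios of -1.04 to -0.61, and so had all 4 of Srxn1, with -0.80 to -0.54. Every responder lay below every non-responder in 2 of the 6 Nqo1 intervals and 1 of the 4 of Srxn1, and 3 of these 4 begin at the same base, so that they share reads. Neither gene shares exon bases with another gene in GENCODE M21. In the last Nqo1 exon non-responder replicate 1 had 8.08 CPM, against 6.03 to 6.39 CPM in non-responder replicates 2 to 4. In the first exon it had 0.516 CPM, against 1.22 to 1.77 CPM in those 3 and 0.404 to 1.34 CPM in responders. Without that library the log2 fold change of Nqo1 was -0.95 (edgeR adjusted p = 0.0388). The 2 genes lost the threshold when the same libraries were left out: without responder replicate 1, 2 or 5, or non-responder replicate 2, the edgeR adjusted p was 0.0532 to 0.0889, while the log2 fold change stayed at -0.89 to -0.68. Both passed in the other 6 of 10 such fits.

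Afp was at 1.38 to 2.28 CPM in 4 responders and 1.70 CPM in the untreated library, while responder replicates 4 and 6 had 121.5 and 99.8 CPM and the 4 non-responders 116 to 381 CPM. Those 2 responders with high Afp had 9.54 and 7.22 CPM of Nqo1 and 64.7 and 54.4 CPM of Srxn1, below all 4 non-responders in both genes. Responder replicate 3, with low Afp, had 7.499 CPM of Nqo1 and 58.9 CPM of Srxn1. With log2 Afp as a covariate the log2 fold change was -0.40 for Nqo1 and -0.47 for Srxn1 (edgeR adjusted p = 0.638 and 0.538). With the title number of each library as covariate it was -0.52 and -0.65 (edgeR adjusted p = 0.619 and 0.464); these numbers run from 1 to 29 in responders and 26 to 37 in non-responders. Both covariates follow the groups, and with them edgeR called 0 and 1 of the 17610 genes, against 1670 and 1857 at an unadjusted p under 0.05. No non-responder had low Afp, so response and Afp cannot be told apart among the low-Afp libraries.

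**Figure D2:**
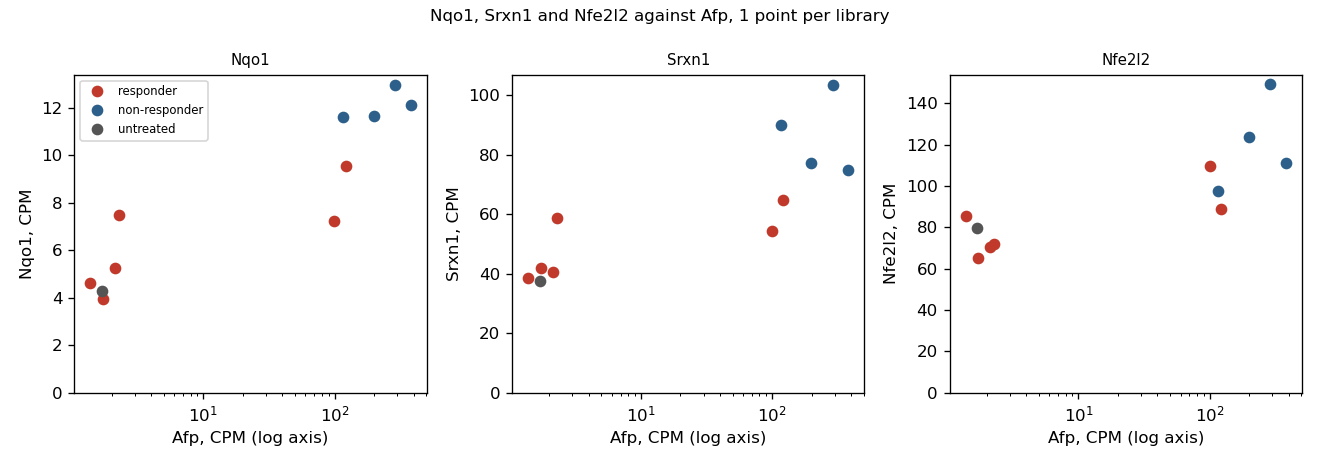
Nqo1, Srxn1 and Nfe2l2 in CPM against Afp in CPM (log axis), 1 point per library, for responders, non-responders and the untreated library. The 4 responders and the untreated library with Afp under 3 CPM lie at the left. On the Afp axis, responder replicate 4, at 121.5 CPM, lies just above the lowest non-responder, at 116 CPM. Responder replicate 6, at 99.8 CPM, lies below all non-responders. In Nqo1 and Srxn1 both lie below all 4 non-responders.

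**Figure D3:**
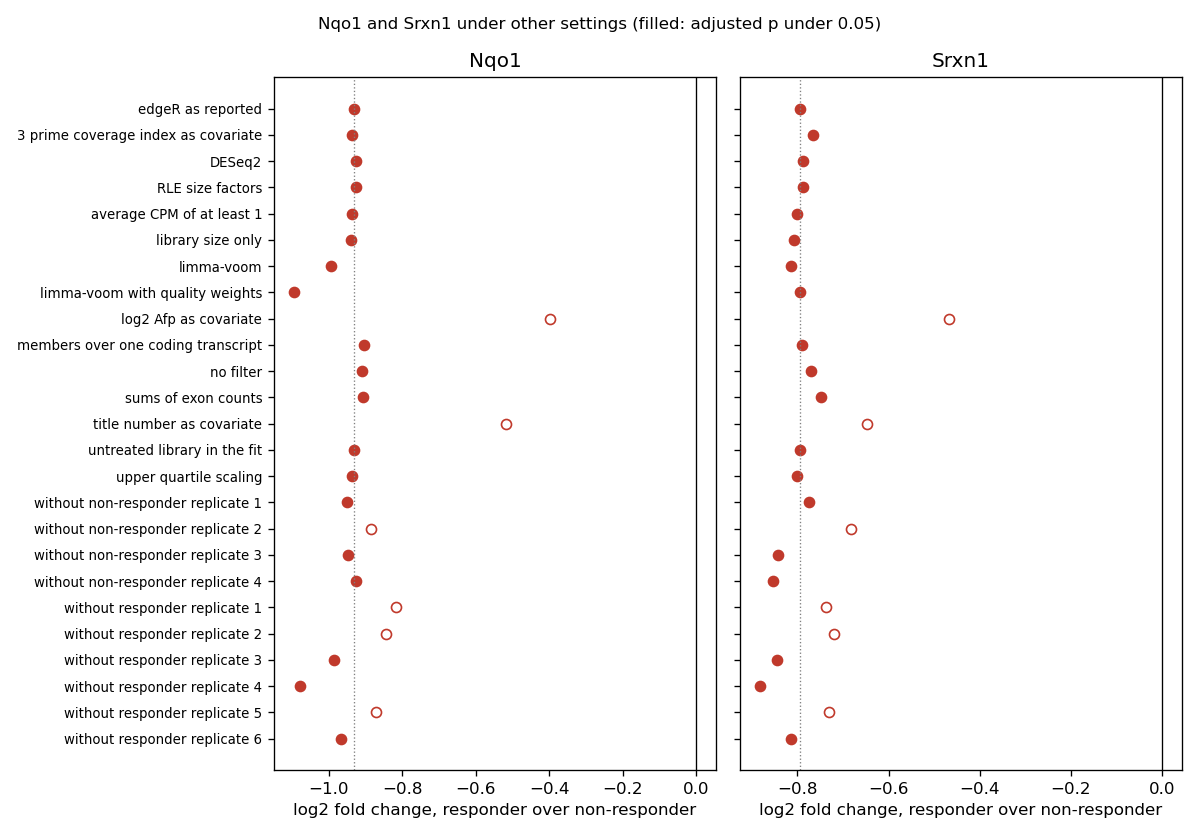
Log2 fold change of Nqo1 and Srxn1, responder over non-responder, under each setting tried, with filled points where the adjusted p was under 0.05. Every point lies below 0, and the points nearest 0 are the 2 fits with a covariate that follows the groups.

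Cystine taken up by xCT, the transporter that Slc7a11 encodes, is 1 source of cysteine for glutathione synthesis. That synthesis begins with glutamate-cysteine ligase, whose catalytic subunit is Gclc and whose modifier subunit is Gclm. Gclc had the highest level per length of the 9 genes (chromosome 9, 77754535 to 77794485). It had 361, 407, 492, 443, 382 and 329 CPM in responder replicates 1 to 6 and 237, 300, 396 and 455 CPM in non-responder replicates 1 to 4, so the groups overlapped. Its log2 fold change of 0.21 ± 0.19 did not pass (SE; adjusted p in edgeR = 0.507), and it was 0.07 with non-responder replicate 1 left out.

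Gclm (chromosome 3, 122245557 to 122269984) had 251, 263, 275, 230, 272 and 245 CPM in responder replicates 1 to 6, against 147, 147, 232 and 225 CPM in non-responder replicates 1 to 4. Only responder replicate 4, at 230 CPM, fell below any non-responder. The means were 256 ± 17.1 CPM in responders (SD, n = 6) and 188 ± 47.1 CPM in non-responders (SD, n = 4), giving a log2 fold change of 0.45 ± 0.16 (SE; adjusted p in edgeR = 0.0938, DESeq2 adjusted p = 0.0408). The gene shares 5.34% of its exon bases with the gene models Gm17494 and Gm6061.

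The balance of the 2 ligase subunits was also compared within each library. The log2 ratio of Gclc to Gclm counts was 0.64 ± 0.21 in responders (SD, n = 6) and 0.87 ± 0.17 in non-responders (SD, n = 4), and 0.47 in the untreated library. The difference of -0.23 did not pass (two-sided exact permutation test over 210 assignments, p = 0.1). It ranged from -0.29 to -0.18 with each library left out in turn, and only without responder replicate 4 did the exact p pass, at 0.0476.

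Slc7a11 (chromosome 3, 49892526 to 50443614, minus strand) was close to silent. Its gene count gave 2.10, 2.49, 2.75, 2.30, 2.48 and 3.70 CPM in responder replicates 1 to 6 and 5.16, 5.87, 3.001 and 1.62 CPM in non-responder replicates 1 to 4. The groups overlapped, and the log2 fold change of -0.56 ± 0.32 did not pass (SE; adjusted p in edgeR = 0.280). These counts are mostly not reads of the coding transcript: 78.0% of them, over all libraries, fell in the interval of a transcript that GENCODE M21 lists as a retained intron (50415970 to 50418032), which held 36 to 140 reads in responders, 57 to 105 reads in non-responders and 131 reads in the untreated library.

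Exons 1 to 11 of the Slc7a11 coding transcript held 0, 1, 4, 2, 0 and 0 reads in responder replicates 1 to 6, against 10, 58, 0 and 0 reads in non-responder replicates 1 to 4 and 0 in the untreated library. Its last exon held 1 to 17 reads in responders, 51, 91, 12 and 8 reads in non-responder replicates 1 to 4 and 8 in the untreated library. Reads of the transporter's own messenger were thus found mainly in non-responder replicates 1 and 2. Counted over that transcript alone, in an alternative chosen after the data were seen, Slc7a11 had a log2 fold change of -2.69 ± 0.79 (SE; adjusted p in edgeR = 0.0515), with 0.256 ± 0.161 CPM in responders (SD, n = 6) and 1.70 ± 1.83 CPM in non-responders (SD, n = 4).

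**Figure D4:**
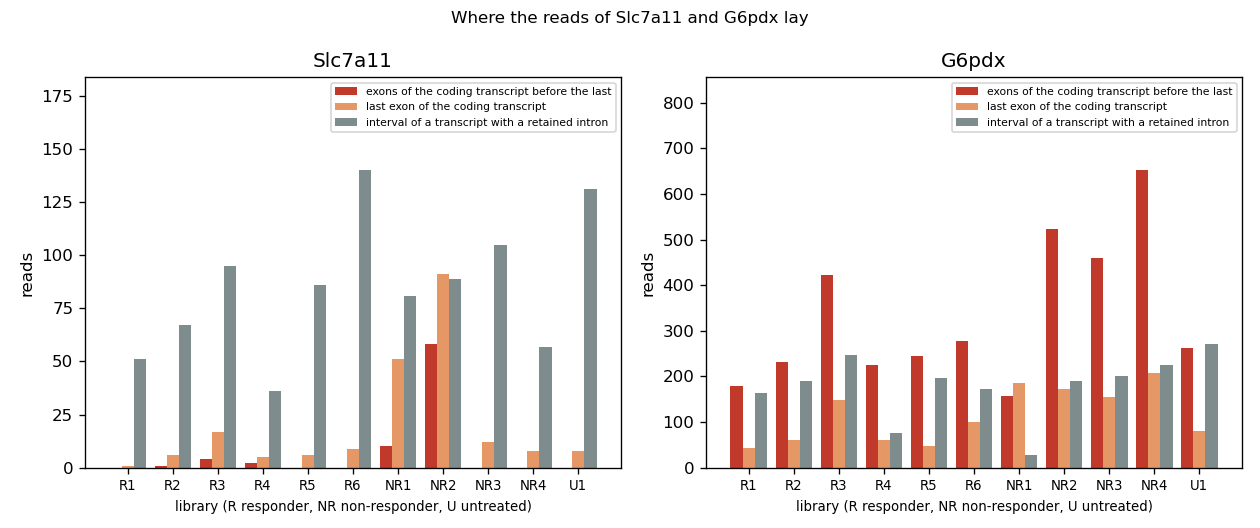
Reads of Slc7a11 and G6pdx in each library by region of the gene: coding exons before the last, the last coding exon, and the interval of a transcript with a retained intron. Most Slc7a11 reads lie in the retained-intron interval in every library but non-responder replicate 2, and G6pdx reads lie mostly in its coding exons.

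Gsr encodes glutathione reductase, which returns oxidised glutathione to its reduced form with NADPH (chromosome 8, 33652523 to 33698163). It had 66.05, 68.2, 75.3, 68.9, 69.6 and 63.3 CPM in responder replicates 1 to 6, against 57.05, 53.0, 55.3 and 60.1 CPM in non-responder replicates 1 to 4. Every responder lay above every non-responder, as did 5.61% of all genes tested. The means were close, at 68.6 ± 4.01 CPM in responders (SD, n = 6) and 56.4 ± 2.99 CPM in non-responders (SD, n = 4), and the log2 fold change of 0.28 ± 0.09 narrowly missed the threshold (SE; adjusted p in edgeR = 0.0614). DESeq2 called Gsr higher (adjusted p = 0.00649), and edgeR did so without non-responder replicate 1 (adjusted p = 0.0431). None of its 15 exon intervals had a lower mean in responders, and in 5 of them every responder lay above every non-responder. The last interval, which held the most reads, had a log2 ratio of 0.005 and overlapping groups. Non-responder replicate 1 was the highest library there, at 39.2 CPM.

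Txnrd1 encodes thioredoxin reductase 1, which keeps thioredoxin reduced in the cytosol (chromosome 10, 82859206 to 82897724). It had 152, 155, 203, 178, 159 and 164 CPM in responder replicates 1 to 6 and 111, 145, 174 and 172 CPM in non-responder replicates 1 to 4. Apart from the lowest library, non-responder replicate 1, the groups covered much the same range, and the log2 fold change of 0.16 ± 0.15 did not pass (SE; adjusted p in edgeR = 0.517). In that library the first exon had 1.07 CPM, against at least 3.03 CPM in every other library, while the last exon, at 80.4 CPM, lay within their range. Without it the log2 fold change was 0.04.

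Hmox1 encodes haem oxygenase 1, which splits haem into biliverdin, iron and carbon monoxide (chromosome 8, 75093591 to 75100596). It had 20.7, 32.7, 32.9, 25.4, 19.3 and 17.8 CPM in responder replicates 1 to 6 and 19.8, 37.8, 25.2 and 24.2 CPM in non-responder replicates 1 to 4. The groups overlapped across nearly their whole range, with a log2 fold change of -0.11 ± 0.22 (SE; adjusted p in edgeR = 0.789) that was 0.11 without non-responder replicate 2. Hmox1 is also a gene of macrophages that clear red cells, and its product acts on haem; the macrophage and erythroid marker sums are given above, and their part in its level was not tested.

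G6pdx encodes glucose-6-phosphate dehydrogenase, the entry enzyme of the pentose phosphate pathway and a source of NADPH (chromosome X, 74409483 to 74429194, minus strand). It had 12.98, 13.2, 16.2, 15.5, 10.8 and 11.4 CPM in responder replicates 1 to 6 and 12.1, 18.9, 16.7 and 20.6 CPM in non-responder replicates 1 to 4. Leaving aside non-responder replicate 1, the non-responders lay above every responder, but over all libraries the log2 fold change of -0.36 ± 0.17 did not pass (SE; adjusted p in edgeR = 0.189). An interval of another retained-intron transcript held reads equal to 35.2% of the gene counts over all libraries, and 418 of its 493 bases also belong to exons of Ikbkg, the neighbouring gene of the NF-κB pathway.

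That G6pdx interval held 77 to 247 reads in responders, 28, 189, 201 and 224 reads in non-responder replicates 1 to 4 and 270 reads in the untreated library. Counted over 1 coding transcript, again an alternative chosen after the data were seen, G6pdx had 10.8 ± 2.94 CPM in responders (SD, n = 6) and 17.2 ± 3.82 CPM in non-responders (SD, n = 4). The log2 fold change was then -0.67 ± 0.21, with an edgeR adjusted p of 0.0609 that still missed the threshold. The labels give no strand setting for the counting, so reads of G6pdx and Ikbkg over the shared bases cannot be told apart.

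Levels were set side by side between genes on the deposited RPKM scale, which is per length. The median over the 11 libraries was 75.9 RPKM for Gclc, 31.3 for Txnrd1, 28.8 for Gclm, 15.9 for Gsr, 15.8 for Srxn1, 7.80 for Hmox1, 3.65 for Nqo1, 3.01 for G6pdx and 0.130 for Slc7a11. Gclc, at 53.0 to 109 RPKM, lay above Txnrd1, at 24.9 to 44.9 RPKM, in every library, and Slc7a11, at 0.0812 to 0.304 RPKM, lay below all others. The ranges of all neighbours in between overlapped. Gclm exceeded Gsr and Hmox1 exceeded Nqo1 in all 11 libraries, and Srxn1 exceeded Hmox1 in 10. Txnrd1 exceeded Gclm in 7 of 11 libraries, Gsr exceeded Srxn1 in 7 and Nqo1 exceeded G6pdx in 6. Glutathione and thioredoxin enzymes thus held the upper ranks, and the pair of genes that fell in responders held ranks 5 and 7 of 9.

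Among 11 regulators of the pathway, 1 fell in responders and none was called higher (1 at an unadjusted p under 0.05, Dpp3), in edgeR, with a median log2 fold change of 0.10. DESeq2 called 3 lower, Mafk, Maff and Nfe2l2, and none higher. Nfe2l2, the messenger of NRF2 itself, had 64.9, 85.4, 71.9, 88.8, 70.3 and 109.9 CPM in responder replicates 1 to 6 and 97.8, 150, 124 and 111 CPM in non-responder replicates 1 to 4. Only responder replicate 6 reached into the range of the non-responders. Nfe2l2 averaged 81.9 ± 16.5 CPM in responders (SD, n = 6) and 121 ± 22.1 CPM in non-responders (SD, n = 4), and its log2 fold change of -0.56 ± 0.17 was just outside the threshold (SE; adjusted p in edgeR = 0.0528). It passed in DESeq2 (adjusted p = 0.0193), in edgeR when the 3′ index was a covariate (adjusted p = 0.0477) and in 2 of the 10 fits with a library left out. With log2 Afp as a covariate its log2 fold change was -0.20 (edgeR adjusted p = 0.789). With the title number it was -0.22 (edgeR adjusted p = 0.766). The highest responders for Nfe2l2 were replicates 6 and 4, the 2 with high Afp.

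Keap1 hardly differed in its mean, with 54.7 ± 1.63 CPM in responders (SD, n = 6) and 55.5 ± 3.48 CPM in non-responders (SD, n = 4), giving a log2 fold change of -0.02 ± 0.08 (SE; adjusted p in edgeR = 0.888). The regulator that fell was Mafk, a small MAF protein that serves as partner of NRF2 and also of the repressor BACH1. Mafk had 13.7 ± 2.56 CPM in responders (SD, n = 6) and 23.2 ± 5.50 CPM in non-responders (SD, n = 4), with no overlap and a log2 fold change of -0.76 ± 0.17 (SE; adjusted p in edgeR = 0.0247). It passed in 6 of 10 fits with a library left out. With log2 Afp as a covariate the log2 fold change of Mafk was -0.46 (edgeR adjusted p = 0.555). Its highest responders were again replicates 4 and 6, at 17.3 and 16.5 CPM.

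The related lists moved in both directions. Across all 8, regulators included, 90 of 93 genes were tested, of which 14 rose and 11 fell, with a median log2 fold change of 0.09. These 25 calls stand beside a background of 9.93% called among all genes tested. DESeq2 called 25 higher and 19 lower, limma-voom with quality weights 24 and 15, and edgeR without a filter on low counts 11 and 6. The background differed too. Over all genes tested, DESeq2 called 3057 of 17610, limma-voom with quality weights 3642 of 17610 and edgeR without the filter 1244 of 29217. The counts rested on 1 library above the others: without non-responder replicate 2, 1 rose, Abcc3, and none fell, in a fit in which edgeR called 79 of all genes and 3906 had an unadjusted p under 0.05. Without responder replicate 1, 2 or 5 there were 4 or 5 higher and 3 or 4 lower, without responder replicate 3 there were 8 higher and 5 lower, and with either covariate that follows the groups there were none.

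Among 17 other NRF2-inducible genes 2 rose and 4 fell. Abcc3, an export pump for conjugates and bile salts, rose to 272 ± 78.1 CPM in responders (SD, n = 6), against 72.1 ± 20.98 CPM in non-responders (SD, n = 4), giving a log2 fold change of 1.92 ± 0.26 (SE; adjusted p in edgeR = 0.0118) that passed with each of the 10 libraries left out. Pir, the quercetin dioxygenase pirin, fell to 21.7 ± 4.46 CPM in responders (SD, n = 6), against 39.0 ± 2.91 CPM in non-responders (SD, n = 4), with a log2 fold change of -0.85 ± 0.15 (SE; adjusted p in edgeR = 0.0149). Trib3, a pseudokinase also induced by amino acid stress, fell to 7.31 ± 2.64 CPM in responders (SD, n = 6), against 26.3 ± 15.6 CPM in non-responders (SD, n = 4), with a log2 fold change of -1.85 ± 0.37 (SE; adjusted p in edgeR = 0.0196).

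Among 16 glutathione S-transferases 3 rose and 2 fell. Gsto1 rose to 42.8 ± 8.16 CPM in responders (SD, n = 6), against 22.9 ± 2.46 CPM in non-responders (SD, n = 4; log2 fold change 0.91 ± 0.16, edgeR adjusted p = 0.0149). Gsta2 rose to 4.14 ± 1.05 CPM in responders (SD, n = 6), against 1.53 ± 0.386 CPM in non-responders (SD, n = 4), and Gstm2 fell to 58.0 ± 24.2 CPM in responders (SD, n = 6), against 169 ± 68.0 CPM in non-responders (SD, n = 4). The alpha and mu families hold near-identical copies, so the split of reads between their members is uncertain.

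Glutathione synthesis and use gave 3 higher and 3 lower of 14 tested. Gpx1, the main glutathione peroxidase of hepatocytes, rose to 1066 ± 169 CPM in responders (SD, n = 6), against 563 ± 158 CPM in non-responders (SD, n = 4; log2 fold change 0.92 ± 0.21, edgeR adjusted p = 0.0246). Oplah, which opens the ring of 5-oxoproline, rose to 154 ± 13.3 CPM in responders, against 98.7 ± 24.7 CPM in non-responders. Gpx3, the secreted peroxidase, fell to 1.93 ± 0.307 CPM in responders, against 8.35 ± 8.57 CPM in non-responders, where the spread exceeded the mean and the groups overlapped. Non-responder replicate 1 had 20.8 CPM of Gpx3. Without that library the log2 fold change was -1.13, against -2.11 with it, and still passed narrowly (edgeR adjusted p = 0.0498). With all 10 treated libraries and the 3′ index of exon read density as a covariate, Gpx3 did not pass (edgeR adjusted p = 0.0559).

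Of 14 thioredoxin and peroxiredoxin genes 3 rose and 1 fell. Prdx3, the mitochondrial peroxiredoxin, fell to 80.7 ± 13.9 CPM in responders (SD, n = 6), against 136 ± 15.3 CPM in non-responders (SD, n = 4; log2 fold change -0.76 ± 0.14, edgeR adjusted p = 0.0166). Txnrd3, a reductase highest in testis, rose to 10.9 ± 1.53 CPM in responders, against 5.81 ± 1.56 CPM in non-responders. Sesn1, a stress-induced sestrin, rose to 17.0 ± 1.79 CPM in responders, against 12.4 ± 1.56 CPM in non-responders. Of 4 genes for superoxide and peroxide removal 2 rose: catalase, Cat, to 2829 ± 640.1 CPM in responders, against 1161 ± 561 CPM in non-responders, and mitochondrial Sod2 to 150 ± 16.3 CPM in responders, against 98.5 ± 20.5 CPM in non-responders.

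Of 7 genes tested for NADPH supply Me1, the cytosolic malic enzyme, rose to 211 ± 41.7 CPM in responders (SD, n = 6), against 85.6 ± 23.3 CPM in non-responders (SD, n = 4; log2 fold change 1.30 ± 0.21, edgeR adjusted p = 0.0148). The other genes of this list did not pass, and neither did G6pdx, as given above. In haem breakdown and iron storage none of 7 passed in edgeR, where 4 had an unadjusted p under 0.05, while DESeq2 called 2, Hmox2 lower and Slc40a1 higher. The smallest p there was that of Hmox2, the constitutive haem oxygenase, with 34.6 ± 2.62 CPM in responders (SD, n = 6) and 45.0 ± 7.74 CPM in non-responders (SD, n = 4; edgeR adjusted p = 0.0627, DESeq2 adjusted p = 0.0346).

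**Figure D5:**
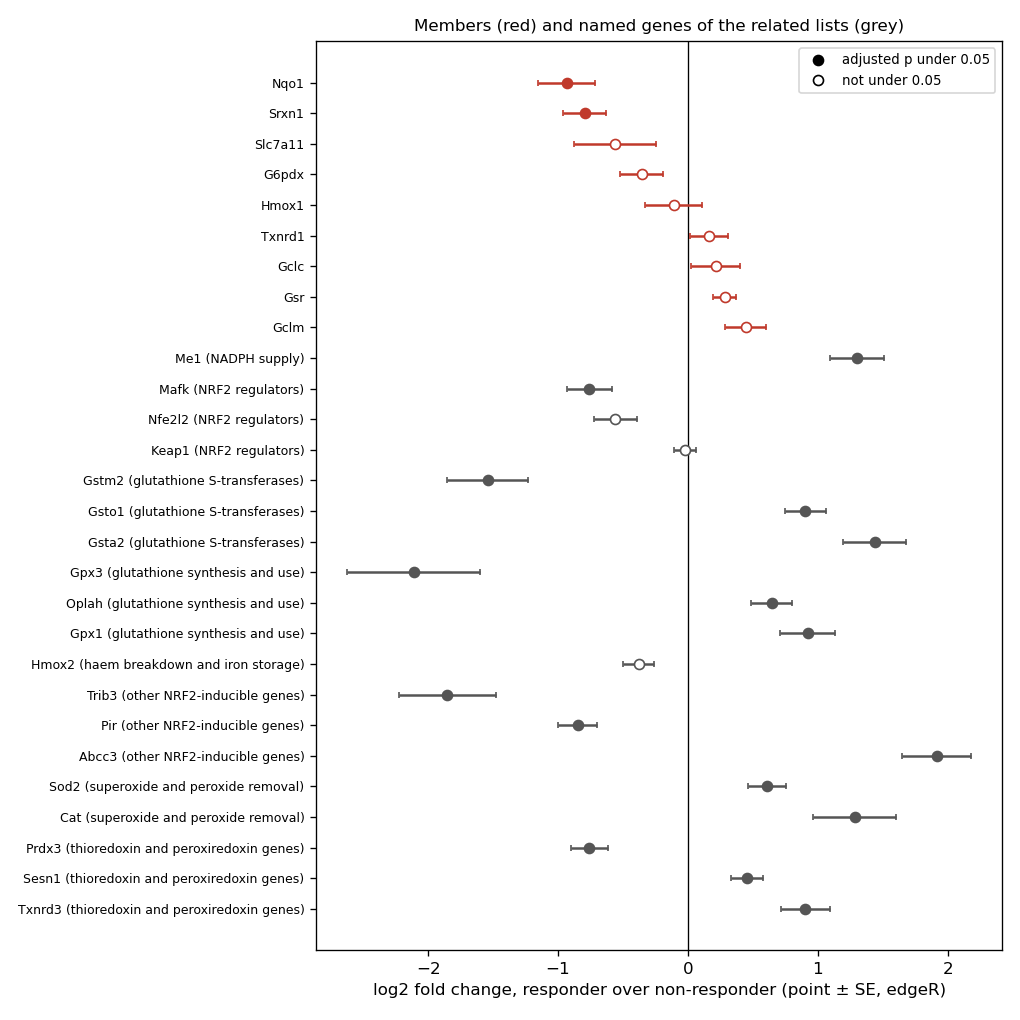
Log2 fold change, responder over non-responder, with its SE from edgeR, for the 9 members and the named genes of the related lists. Nqo1 and Srxn1 lie at -0.93 and -0.79 among the members, and the related genes spread from Gpx3 at -2.11 (-1.13 without non-responder replicate 1) to Abcc3 at 1.92.

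The untreated library is a single one, so its values have no replicate check. It lay outside the range of the 10 treated libraries in 3 of the 9 genes, where 16.1% of all genes tested did so. Gclm, at 276 CPM (exact 95% Poisson interval 271.5 to 280.8), was above the range, Srxn1, at 37.7 CPM (36.0 to 39.5), and G6pdx, at 10.7 CPM (9.84 to 11.7), were below it. The nearest treated libraries, at 274.8 CPM of Gclm, 38.7 CPM of Srxn1 and 10.8 CPM of G6pdx, lay within the counting intervals of these values, so the order there was not detectable at this depth. Nqo1, at 4.27 CPM (3.71 to 4.89), lay below 5 of 6 responders and all 4 non-responders. Gclc had 382 CPM there, Txnrd1 153 CPM, Hmox1 19.8 CPM, Slc7a11 2.84 CPM and Gsr 71.4 CPM, all within the range of the treated libraries, and Gsr lay above all 4 non-responders. Nfe2l2, at 79.7 CPM, lay within the range of the responders and below all 4 non-responders, and for Nqo1, Srxn1, Gclm, Gsr and Nfe2l2 both this library and the responders' mean lay on 1 side of all 4 non-responders. For G6pdx the untreated library lay below all 4, while the responders' mean of 13.4 CPM lay above non-responder replicate 1. The share of all genes with the untreated library and the responders' mean on 1 side of all 4 non-responders was not counted. The untreated library also had low Afp, at 1.70 CPM, as had 4 of the responders.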

How the data were processed

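RNA of mouse livers was sequenced from TruSeq libraries, per the labels' protocols. The authors deposited raw counts per gene, raw counts per exon and RPKM, per the file headers. The submitters' processing notes name FastQC and mm10. The aligner, counter and annotation are not given in the sources used. The members, lists and tests were chosen with earlier results of these data known.

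Libraries were grouped by response label. Counts were analysed with edgeR 4.0.16 (R 4.3.3), by a robust quasi-likelihood F test over the 17610 genes that filterByExpr kept, with TMM scaling and Benjamini-Hochberg adjustment at 0.05; the SE is the size of the log2 fold change over the root of F. RPKM was used only for levels between genes. Exons and overlaps came from GENCODE M21, promoters from RefSeq (GRCm38.p6). The subunit ratio, with 0.5 added to each count, was tested by exact permutation in scipy 1.17.1. Named genes were the 9 members, Nfe2l2 and Keap1, per list up to 3 genes of smallest p past the threshold (otherwise its 1 gene of smallest p), Afp, Alb and the top gene of each marker list, of which few are printed. The fit was also run on simulated counts with planted changes, and the outcome is not given here. That simulation held no library with shifted reads and no split by Afp, so it does not test the fit under those features. Within groups, the median chi-square of library pairs was at least 4.28 times that of counting noise. None was treated as the same library sequenced again. This does not show that the libraries come from separate mice. Intervals cover counting error only. Alternatives were other scalings and filters, DESeq2 1.42.0, limma 3.58.1 voom with and without quality weights, covariates (title number, 3′ coverage index, log2 Afp), exon sums, the untreated library in the fit, each library left out and, added after the data were seen, 1 coding transcript per member.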

Additional observations from a re-analysis of the deposited data

Results flagged for a closer look

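Of 58 sets of values tested for a library standing apart from its group, 2 did, and chance alone marks about 1 set in 20. Both concern non-responder replicate 1, the library with reads shifted to later exons. Gstm2 was highest there among the 4 non-responders, at 270.2 CPM, and without that library its log2 fold change was -1.22. Prdx3 was lowest there, at 113.8 CPM, and without it its log2 fold change was -0.84. The 9 members were among the sets tested, and none of them had such a library.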

How the results depend on the processing

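The count of members lower in responders was 2 with each scaling and filter, with the exon sums, the coding transcripts and both DESeq2 and limma-voom. It was 0 with log2 Afp and 0 with the title number as a covariate, and 0 to 2 with a library left out. With the 3′ coverage index and with voom quality weights it was 3, G6pdx being the added gene. The count of members higher in responders was 0 in the main edgeR fit and 2 with DESeq2. It was 1, Gsr, in edgeR with the 3′ coverage index, in edgeR with exon sums and in limma-voom with quality weights. With a library left out it was 0 to 1. The direction reversed with voom quality weights for Gclc (-0.012), Txnrd1 (-0.021) and Slc7a11 (0.093), and without non-responder replicate 2 for Hmox1, whose values ran from -0.23 to 0.11 with a library left out. The subunit ratio difference was -0.29 to -0.18 with a library left out. The cause of these changes was not tested. The untreated library's count of 3 members outside the range did not change under the other scalings. The order of RPKM levels was the same in TMM-scaled CPM per kilobase. That alternative uses the same counts and lengths, so it checks neither. No paired analysis was possible because the labels give the groups no shared replicate numbers. Depth limits mainly Slc7a11, whose coding exons held few reads.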
